A study of Mus musculus with 2 samples.

Results

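The 40 genes described here are expressed in the G2 phase and in mitosis, the stretch of the cell cycle from the end of DNA synthesis to the separation of the daughter cells. They were listed by their known function, with earlier results of these data in view, and are 40 of the 32285 gene rows of a single-cell RNA sequencing matrix. All 40 had counts in the cells analysed, with 188268 unique molecular identifiers (UMIs, each standing for 1 captured transcript) between them, or 3190 of every 1000000 UMIs (CPM). The levels below were compared over 8 cell populations marked by hashtag antibodies and over classes of cells within them.

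Entry into mitosis is driven by the kinase Cdk1 bound to cyclins A and B, whose genes, with those of the spindle, the kinetochores and cytokinesis, are transcribed late in the cell cycle and switched off after division. Many of these genes carry a short promoter element, the cell cycle homology region (CHR), through which the DREAM complex represses them in resting cells and MYB and FOXM1 complexes activate them in G2. In the thymus most division takes place in double negative thymocytes after β selection and in early double positive (DP) blasts. Invariant natural killer T (iNKT) cells, which recognise lipids on CD1d, divide after their positive selection and are thought to be largely resting as mature NK1.1+ cells.

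The cells came from thymi of Ctrl mice and of T-KO mice, which lack Kidins220 in T lineage cells through floxed alleles and a Cre driven by the proximal Lck promoter, all on the C57BL/6 background. For each genotype 4 thymi were pooled, and this was done 2 times in parallel. From each pool TCRβ+ CD1d tetramer+ CD24+ NK1.1- cells (stage 0) and TCRβ+ CD1d tetramer+ NK1.1+ CD24- CD44+ cells (stage 3) were sorted, which gave 8 populations in 1 droplet library read from the 5′ end. The ages of the mice in these pools are not given in the sources used here, and the Lck promoter acts from the double negative stage on, so cells of other lineages in either genotype keep Kidins220.

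The labels pair hashtags 1 to 8 with stage and genotype, but 99.9% of the hashtag UMIs lay on hashtag rows 11 to 18 of the matrix. As neither the labels nor the methods say which of these rows stands for which population, each row was kept without a stage or genotype. Genotypes and stages were therefore not set against each other, and odd and even below refer to row numbers only. Of 16179 barcodes, 12147 had at least 1000 genes and at most 5% mitochondrial UMIs, and 10007 of these were assigned to 1 row that held at least 80% of at least 10 hashtag UMIs. The rows held 577 to 2162 cells and 2283162 to 14601545 gene UMIs, with a median of 6500 to 8068 UMIs per cell in the odd rows and 3258 to 3804 in the even rows. Kidins220 had 13.9 to 35.2 CPM over the 8 rows, which cannot be set against a genotype. The matrix is 1 pooled sample without replicates, so no test between groups was made, and intervals cover counting error only.

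RefSeq promoter windows of the mouse assembly GRCm38.p6, each with 250 bases before and 50 after a transcription start, matched 36 of the 40 members (38 windows). The windows were searched on both strands for TTTGAA, the core of the CHR, for its variant TTTAAA, and for CCAAT, the site of the factor NF-Y. TTTAAA reads the same on both strands, and neighbouring matches may share bases. TTTGAA was present in 28 of the 36 members, and in 30 of 38 windows (78.9%) against 17.9% of all 32851 windows. Within 50 bases of the start it was found in 25 of the 36 members. Over all windows the share was 4.94%, counted by window and not by gene, so these values have unlike scales. CCAAT was present in 28 members (78.9% of windows against 37.4%), at 2 or more positions in 20 members, and TTTAAA in 10 members (26.3% of windows against 13.2%). Of 39 other mitosis genes with a window 22 held TTTGAA and 27 CCAAT, and of 28 S phase genes 3 and 17. Only Nusap1, Tacc3 and Nuf2 held none of the 3 motifs. A match of letters is a description and not a binding site.

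The 250 bases before the start are shown, on the strand of the gene, for the 6 members that differed most between cells high and low for the other members (described further on) and that had a window with a motif before the start. Capitals mark the 3 motifs and their reverse complements.
Ube2c, GRCm38.p6 chr2:164769679-164769928, plus strand: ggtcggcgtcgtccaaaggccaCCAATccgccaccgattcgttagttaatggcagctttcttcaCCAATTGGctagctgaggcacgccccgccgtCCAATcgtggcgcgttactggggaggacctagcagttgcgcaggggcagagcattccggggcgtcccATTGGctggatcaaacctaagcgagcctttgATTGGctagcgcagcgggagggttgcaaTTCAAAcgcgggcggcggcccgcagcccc
Mki67, GRCm38.p6 chr7:135716380-135716629, minus strand: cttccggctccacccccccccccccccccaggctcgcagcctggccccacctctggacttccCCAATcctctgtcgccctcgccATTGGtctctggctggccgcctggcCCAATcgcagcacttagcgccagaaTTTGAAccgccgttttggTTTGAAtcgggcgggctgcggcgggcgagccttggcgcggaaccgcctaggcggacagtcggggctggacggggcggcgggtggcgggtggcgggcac
Birc5, GRCm38.p6 chr11:117848987-117849236, plus strand: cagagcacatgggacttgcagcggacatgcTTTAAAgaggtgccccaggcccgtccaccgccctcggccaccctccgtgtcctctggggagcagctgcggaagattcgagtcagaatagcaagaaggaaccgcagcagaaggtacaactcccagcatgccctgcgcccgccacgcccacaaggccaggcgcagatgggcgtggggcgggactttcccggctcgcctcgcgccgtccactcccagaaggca
Cenpf, GRCm38.p6 chr1:189688087-189688336, minus strand: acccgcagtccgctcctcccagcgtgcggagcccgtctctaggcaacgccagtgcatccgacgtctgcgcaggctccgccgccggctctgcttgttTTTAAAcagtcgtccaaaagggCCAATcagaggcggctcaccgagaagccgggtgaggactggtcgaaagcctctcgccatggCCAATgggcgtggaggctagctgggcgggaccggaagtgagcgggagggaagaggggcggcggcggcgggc
Top2a, GRCm38.p6 chr11:99024190-99024439, minus strand: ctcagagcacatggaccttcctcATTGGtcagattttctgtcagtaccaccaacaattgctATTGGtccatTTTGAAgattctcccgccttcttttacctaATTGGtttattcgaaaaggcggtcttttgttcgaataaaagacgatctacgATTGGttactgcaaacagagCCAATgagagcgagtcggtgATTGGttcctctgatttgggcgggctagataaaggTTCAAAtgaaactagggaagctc
Cdca3, GRCm38.p6 chr6:124829926-124830175, plus strand: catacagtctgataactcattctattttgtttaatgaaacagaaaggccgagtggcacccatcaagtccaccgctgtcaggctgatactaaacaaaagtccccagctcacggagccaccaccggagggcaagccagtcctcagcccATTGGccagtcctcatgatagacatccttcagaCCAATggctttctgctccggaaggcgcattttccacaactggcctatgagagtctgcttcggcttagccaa
Ube2c, Mki67 and Top2a each had TTTGAA before the start, with CCAAT repeated at 6, 3 and 6 positions. In Cenpf and Cdca3, TTTGAA lay after the start and outside the stretch shown. Birc5 held TTTAAA alone.

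In the 8 hashtag rows the members lay in 2 ranges that did not overlap. Their summed level was 3528 CPM in row 11, 4416 in row 13, 4996 in row 15 and 5382.5 in row 17. It was 738 CPM in row 12, 665 in row 14, 861 in row 16 and 1067 in row 18. The lowest odd row thus lay above the highest even row. Every one of the 40 members showed this, with each odd row above each even row. Of all 9749 genes with at least 10 CPM in a row, 36.4% did so as well, so many genes besides the members separated these rows. Of further cell cycle lists, 48 of 50 other mitosis genes, 34 of 36 S phase genes and 3 of 12 genes of cell cycle exit did so.

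Markers of several cell types moved with the same split, but not of all. B cell markers had 202 to 438 CPM in the odd and 15.5 to 28.9 CPM in the even rows, and dendritic cell markers 7625 to 21812 and 368 to 846 CPM. Markers of mature iNKT1 cells had 341 to 560 CPM in the odd and 4266 to 4856 CPM in the even rows. Stage 0 iNKT markers had 822 to 1118 CPM in the odd and 299 to 340 CPM in the even rows. Only 4 of these 7 markers had each odd row above each even row. Markers of agonist-selected thymocytes overlapped, with 329 to 593 CPM in the odd and 369 to 665 CPM in the even rows. In odd-row cells below the gates for B cell, dendritic cell, DP and agonist genes (the rest class below) the members had 4167 to 5669.7 CPM, also above every even row. These cells still had 1363 CPM of DP markers and 382 CPM of double negative markers, both above their levels in the even rows. They thus differed from the even rows in kinds of cells as well, and the part of this in the gap was not tested.

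Ube2c encodes the ubiquitin-conjugating enzyme of the anaphase-promoting complex and had the most member UMIs, 19788. Its level was 373, 474, 538 and 582 CPM in rows 11, 13, 15 and 17, and 63.6, 56.4, 75.8 and 83.5 CPM in rows 12, 14, 16 and 18. Mki67, whose product coats mitotic chromosomes, had 316, 385, 457 and 484 CPM in the odd rows and 65.1, 49.4, 74.9 and 117 CPM in the even rows. The lowest odd row was 4.47 times the highest even row for Ube2c and 2.70 times for Mki67. Cenpa, the histone H3 variant of centromeres, was nearest to an overlap. It had 134, 156, 167 and 198 CPM in the odd rows and 34.7, 37.4, 56.5 and 57.7 CPM in the even rows, a gap of 2.31 times. Ttk, a kinase of the spindle checkpoint, had the fewest UMIs, 565 in all. It lay between 11.7 and 14.3 CPM in the odd rows and between 1.37 and 4.74 CPM in the even rows. Over all members the ratio of the median odd row to the median even row went from 3.44 for Cenpa to 8.01 for Ccnb2, which encodes cyclin B2.

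**Figure D1:**
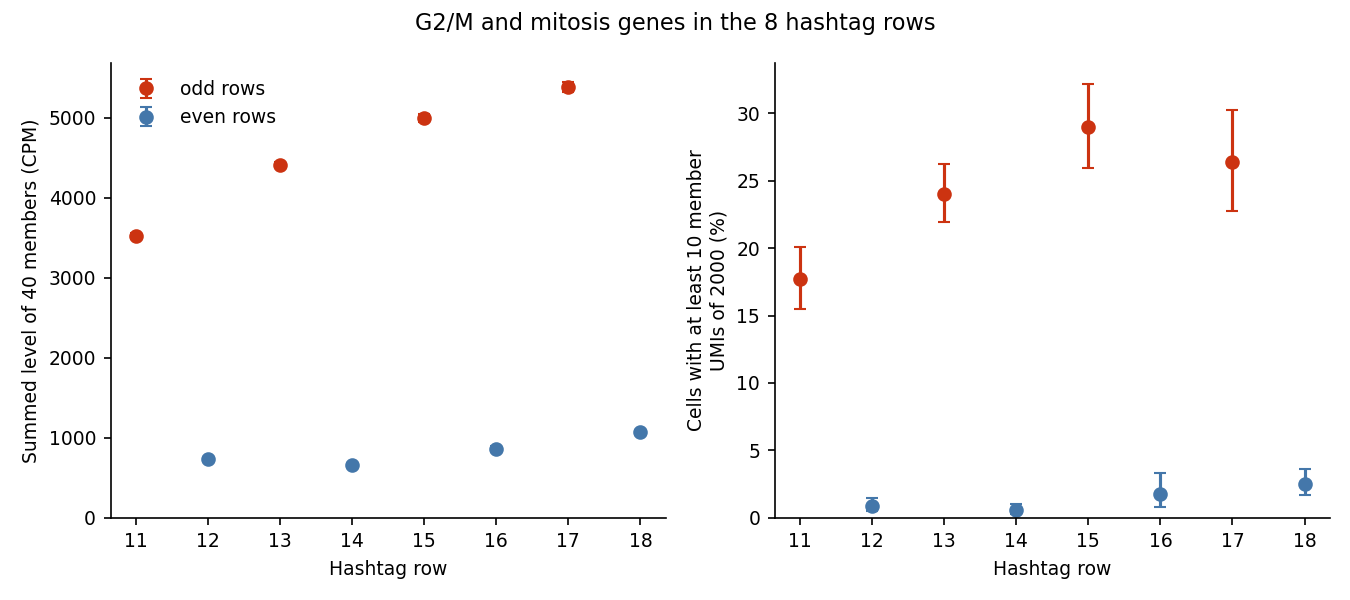
Left, the summed level of the 40 members in CPM for each hashtag row, with exact 95% Poisson intervals that are mostly smaller than the points. Right, the percent of cells with at least 10 member UMIs among 2000 drawn, with 95% Clopper-Pearson intervals. Odd rows (red) lay between 3528 and 5382.5 CPM and even rows (blue) between 665 and 1067 CPM.

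A summed level does not say whether many cells held a few of these transcripts or a few cells held many. Each cell with at least 2000 UMIs (9239 cells; 768 shallower ones were left out) was therefore thinned at random to 2000 UMIs, and cells with at least 10 member UMIs were called high. In all, 1018 cells (11.02%) were high, 5548 had at most 1 member UMI and were called low, and 2673 lay between. The high cells held 79.9% of the member UMIs. Only 188 cells had 8 to 11 member UMIs, near the limit of 10. High cells had a median of 14216 UMIs before thinning and low cells 3833, so the high cells were also the deeper ones. Of the high cells 956 lay in the odd rows and 62 in the even rows. Of the low cells 1891 lay in the odd rows and 3657 in the even rows.

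The share of high cells was 17.7% in row 11 (95% Clopper-Pearson interval 15.5 to 20.1), 24.0% in row 13 (21.9 to 26.3), 29.0% in row 15 (25.9 to 32.1) and 26.3% in row 17 (22.7 to 30.2). It was 0.862% in row 12 (0.472 to 1.44), 0.559% in row 14 (0.279 to 0.998), 1.77% in row 16 (0.812 to 3.33) and 2.53% in row 18 (1.69 to 3.64). Row 18 exceeded rows 12 and 14 beyond counting error, while row 16 overlapped the other even rows. Without thinning, 24.4 to 42.5% of cells in the odd rows and 0.925 to 3.08% in the even rows had at least 10 member UMIs. High cells had 10028 to 10528 CPM in the odd rows and 10578 to 12131 CPM in the even rows. Here every even row lay above every odd row. Cells were called high by the same member sum, so the cut bounds this level from below. Between odd and even rows the share of high cells differed far more than the level within them. In the remaining cells the members had 936 to 1628 CPM in the odd rows and 499.5 to 543 CPM in the even rows. In the even rows, high cells held only 17.3 to 55.8% of the member UMIs, against 81.2 to 86.3% in the odd rows. Free RNA in droplets was not removed, and its part in the low levels was not tested.

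The odd rows held several kinds of cells, and their 4249 cells were split by the first match of at least 2 UMIs of Cd79a, 5 of Cst3, 1 of Rag1 or 2 of Ikzf2, with the others kept as the rest. Cd79a is part of the B cell receptor, Cst3 is abundant in dendritic cells and macrophages, Rag1 recombines antigen receptor genes in DP thymocytes, and Ikzf2 (Helios) marks agonist-selected thymocytes. The Cd79a class had 2063 CPM of 6 other B cell markers, against 14.5 to 31.1 CPM in the other classes. The Cst3 class had 32413 CPM of 10 dendritic cell markers, the Rag1 class 2031 CPM of 9 DP markers and the Ikzf2 class 1297 CPM of 8 agonist markers. The Cd79a class held 23869 CPM of the dendritic cell list as well, which includes Cd74 and H2-Aa of B cells. The rest class had 1363 CPM of DP markers and 382 CPM of double negative markers. Cells of the even rows had 4753 CPM of 7 iNKT1 markers such as Klrb1c and Nkg7, and the classes of the odd rows had 57.0 to 773 CPM.

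Within the odd rows the Rag1 class held the most member UMIs. Its 418 cells had 7991 CPM (95% Poisson interval 7917 to 8066), with 8475, 8428, 7428 and 7769 CPM in rows 11, 13, 15 and 17. The 943 cells of the rest had 5308 CPM (5254 to 5363), with 4167, 5648, 5670 and 5582 CPM in the same rows. The 1106 cells of the Ikzf2 class had 4823 CPM, with 4870, 4273, 5380 and 5261 CPM. These values place the Rag1 class above the rest and the Ikzf2 class in each row, while the last pair crossed. The 972 cells of the Cst3 class had 3728 CPM (3374, 3884, 3873 and 4270 in the rows). The 810 cells of the Cd79a class had 1234 CPM (1126, 1063, 1398 and 2571 in the rows). Its highest value came from row 17 with 58 cells, and the class stayed below each of the others in all 4 rows.

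The share of high cells followed the same order at the ends. Of the Rag1 class 62.2% were high (95% Clopper-Pearson interval 57.2 to 67.0), of the rest 28.6% (25.6 to 31.8), of the Ikzf2 class 22.4% (19.9 to 25.1), of the Cst3 class 20.9% (18.4 to 23.6) and of the Cd79a class 4.79% (3.41 to 6.52). In the even rows together it was 1.19% (0.914 to 1.52). The pooled shares of the Ikzf2 and Cst3 classes overlapped within counting error, and the pooled rest lay above both. In row 11 the rest had 15.8% (11.4 to 20.99), against 20.1% of the Cst3 class and 21.3% of the Ikzf2 class, so its place was not the same in every row. With stricter gates the Cst3 class had 12.8%, the Ikzf2 class 20.2% and the rest 35.4%. The gates count UMIs, so a deep cell passes them more easily, and the median depth was 13561.5 UMIs in the Rag1 class, 10487 in the Cst3 class, 6002.5 in the Cd79a class, 5517.5 in the Ikzf2 class and 4159 in the rest. In row 11 the Rag1 class had a median of 3684.5 UMIs, against 14409 to 15274 in the other rows, and 62.7% of its 51 cells with at least 2000 UMIs were high. The part of depth in the order of the classes was not tested further.

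**Figure D2:**
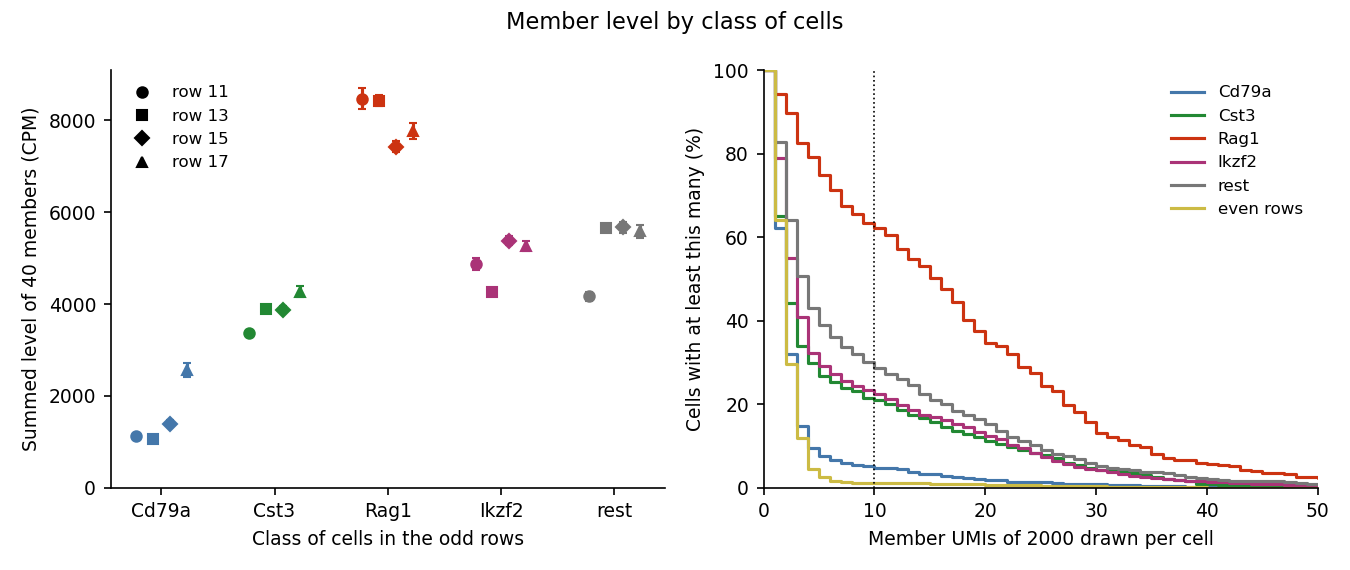
Left, the summed level of the 40 members in CPM for 5 classes of cells in the odd hashtag rows, 1 symbol per row, with exact 95% Poisson intervals. Right, the percent of cells with at least a given number of member UMIs among 2000 drawn, for the same classes and the even rows; the dotted line marks 10. Of the Rag1 class (red) 62.2% lie at 10 or more, against 4.79 to 28.6% of the other classes.

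Member by member, a class was called higher or lower than the rest where the log2 ratio of CPM plus 10 was at least 1 in size and had the same sign in 4 of 4 odd rows. In the Cd79a class 37 of 40 members were called lower and 0 higher, where 16.0% of all 9199 genes compared were called lower and 7.58% higher. The median log2 ratio was -1.67 over the members and -0.41 over all genes. The 3 members not called were Ttk (-0.73), Aspm (-1.15) and Cenpf (-1.61), and the latter 2 were lower in 3 of 4 rows. Ube2c had the lowest ratio, -2.44, with 98.6, 67.0, 114 and 193 CPM in rows 11, 13, 15 and 17, against 495, 575.5, 519.9 and 587 CPM in the rest. Racgap1, a GTPase-activating protein of cytokinesis, was only just called, at 43.0 against 96.7 CPM. Together the members had a log2 ratio of -2.10 (95% interval -2.14 to -2.07), a level 4.30 times lower. Of further lists, 38 of 49 other mitosis genes and 36 of 36 S phase genes were called lower in this class, and 0 of either in the Rag1 class.

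In the Rag1 class 0 of 40 members reached 2-fold and 0 were called higher, as were only 0.0464% of all genes (2.81% were called lower). Although 35 members were higher in 4 of 4 rows, the share of all genes with this direction was not counted. The summed log2 ratio was 0.59 (0.57 to 0.61), and the median over members 0.54 against -0.04 over all genes. Cdc20, an activator of the anaphase-promoting complex, had the highest ratio. Its level was 227, 229.6, 194 and 199 CPM in rows 11, 13, 15 and 17 of the Rag1 class, and 110.1, 130.2, 104 and 126 CPM in the rest. Ube2c (924 against 547 CPM), Ccnb1 (165.5 against 95.8 CPM), Aspm (87.1 against 48.6 CPM) and Cenpf (197 against 115 CPM) followed. The smallest ratios were those of the kinetochore genes Ndc80 and Nuf2 and the motor Kif23, at 0.23 to 0.24.

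The Cst3 class had 0 members called in either direction, where 8.10% of all genes were called higher and 3.60% lower. In this class 28 members were lower in 4 of 4 rows, a direction that was not counted over all genes. Its summed log2 ratio was -0.51 (-0.53 to -0.49). The Ikzf2 class had 0 members called as well, against 1.44% of all genes higher and 0.315% lower. Its summed log2 ratio of -0.14 (-0.16 to -0.12) was positive in 1 of 4 rows, so the class and the rest were not ordered. Without row 13 the ratio turned to 0.041. Only Cenpa was higher in 4 of 4 rows (192 against 172 CPM) and only Anln, an actin-binding protein of the contractile ring, lower in 4 of 4 (31.3 against 37.6 CPM).

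**Figure D3:**
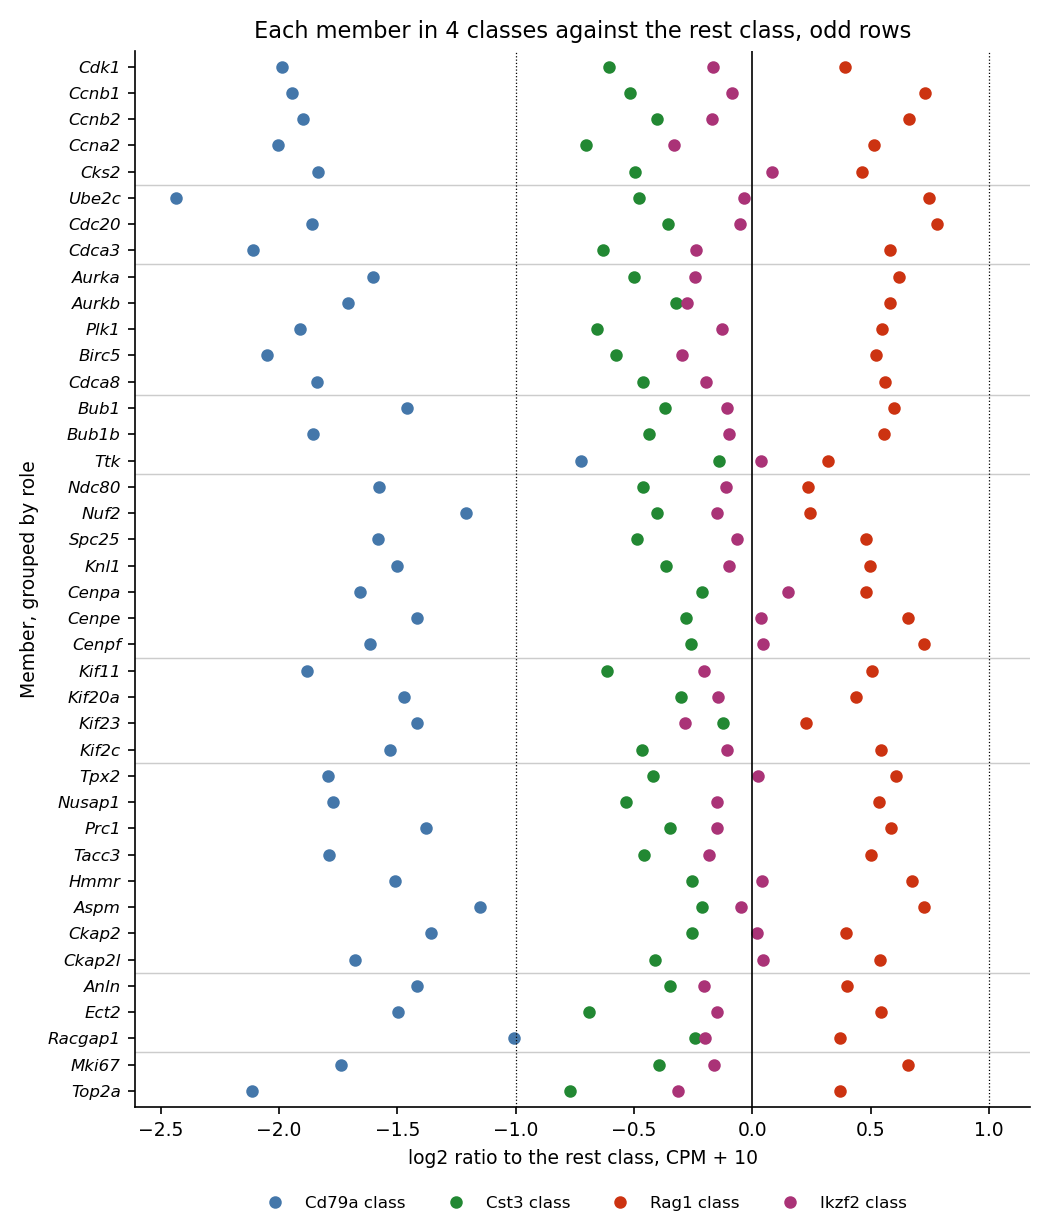
The log2 ratio of each of the 40 members (CPM plus 10) in 4 classes to the rest class, pooled over the odd rows; the dotted lines mark 2-fold, and members are grouped by role. All members lie left of 0 in the Cd79a class (blue, -2.44 to -0.73) and right of 0 in the Rag1 class (red).

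Grouped by role, the members had their lowest level of the 5 classes in the Cd79a class and their highest in the Rag1 class for all 9 roles, with the Cst3 class next to the lowest. The Ikzf2 class lay below the rest, except for the kinetochore and centromere genes (592 against 583 CPM). The cyclins, Cdk1 and its partner Cks2 had 199.7 CPM in the Cd79a class, 599 in the Cst3 class, 830.3 in the Ikzf2 class, 895 in the rest and 1316 CPM in the Rag1 class. The genes of mitotic ubiquitination (Ube2c, Cdc20, Cdca3) had 142.5, 565, 762, 803 and 1346 CPM in the same order. The 3 genes of cytokinesis (Anln, Ect2, Racgap1) spanned a narrower range, from 65.0 to 270.1 CPM. As a share of all member UMIs, mitotic ubiquitination took 11.5% in the Cd79a class and 15.1 to 16.8% in the other classes, and cytokinesis 5.27% and 3.38 to 3.75%.

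Within the Cst3 class the share of high cells was not even over the range of Cst3 UMIs. Of its 196 cells with 5 to 9 Cst3 UMIs 52.8% were high (95% Clopper-Pearson interval 45.6 to 60.0), and they had 7985 CPM of the members. Of the 352 cells with 10 to 99 Cst3 UMIs 12.3% were high (9.01 to 16.1), and of the 424 with 100 or more 13.4% (10.3 to 17.1), at 2576 and 2106 CPM. The cells with 5 to 9 had a median of 14414 UMIs, 923 CPM of the invariant chain gene Cd74 and 408 CPM of the T cell receptor gene Cd3e. The others had 31512 to 32315 CPM of Cd74 and 36.3 to 53.1 CPM of Cd3e. When the gates were raised, the Cst3 class had a summed log2 ratio to the rest of -1.47, and 32 members were called lower, as were 10.5% of all genes. The rest class changed with the gates too, from 28.6 to 35.4% high. Without cells of over 4000 genes the ratio was -1.29 and 18 members were called lower, with 9.80% of all genes. Among cells of the class with 0 UMIs of the T cell genes Cd3e, Cd3d, Trac and Lck of 2000, 15.4% were high (12.9 to 18.3), and of those with any 36.2% (30.3 to 42.4). This split was added once the values were known. Doublets of 2 cells from the same row were not removed, and their part in this was not tested. In the Ikzf2 class, cells with 2 or 3 Ikzf2 UMIs were high in 31.9% (26.7 to 37.5) and those with 4 or more in 18.6% (15.9 to 21.6), at median depths of 5571 and 5495 UMIs. Within the Rag1 class the number of Rag1 UMIs made no difference beyond counting error, with 62.8% of cells with 1 and 61.7% of cells with 2 or more.

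How far the members mark the same cells was measured by choosing cells without the member in question. For each member, cells with at least 10 UMIs of the other members of 2000 (939 to 1011 cells) were compared with cells with at most 1 (5564 to 5926 cells). At least 4-fold differences on the scale of CPM plus 10 were found for 39 of 40 members, where 1.86% of all 9207 genes reached this between cells high and low for the whole list. The log2 ratio went from 1.88 to 4.66 with a median of 3.32, and the median over all genes was 0.09. Ube2c had 1193 CPM in high and 37.6 CPM in low cells. Mki67 had 937 and 32.8 CPM, and Birc5, which encodes survivin of the chromosomal passenger complex, 509.6 and 14.8 CPM. In low cells the members were thus near, but not at, 0.

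Ttk was the member not called, at 30.3 and 0.940 CPM, since the added 10 CPM shrink the ratio of a gene with few counts. Without them its level differed 32.2-fold. On that scale the folds went from 9.08 for Cks2 to 41.0 for Kif2c, a motor that takes microtubules apart, with a median of 22.9. Cks2 (59.7 CPM), Top2a (48.3 CPM), Ube2c (37.6 CPM), Mki67 (32.8 CPM) and Cenpa (30.5 CPM) were the members with the most UMIs left in low cells. Of these, Cks2 and Cenpa also had small folds, 9.08 and 11.6, as did Racgap1 (11.4) and Ndc80 (11.7).

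**Figure D4:**
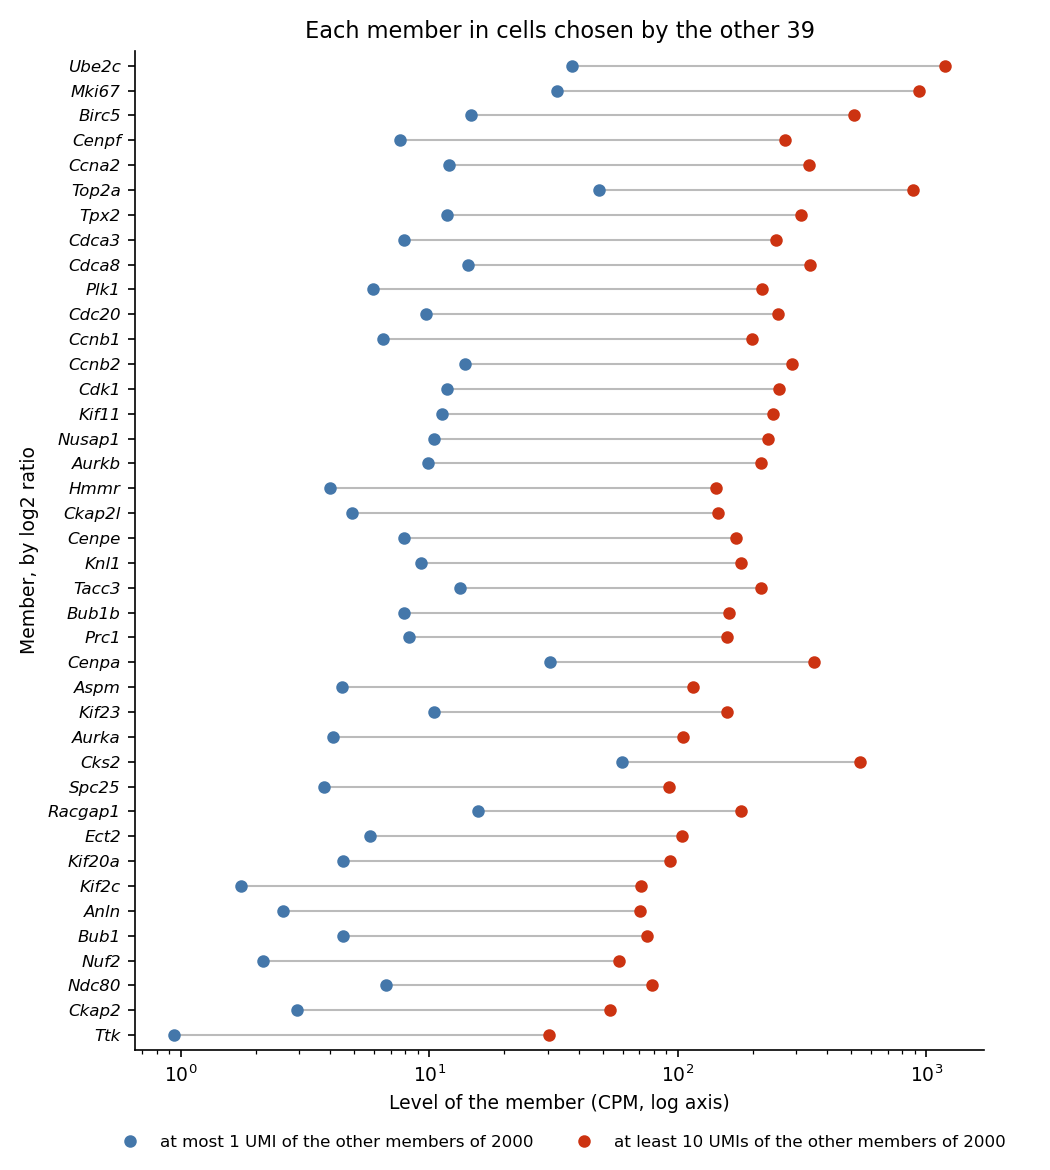
The level of each member in CPM, on a log axis, in cells with at least 10 UMIs (red) and at most 1 UMI (blue) of the other 39 members among 2000 drawn. Members are ordered by the log2 ratio of CPM plus 10, from Ube2c (4.66) to Ttk (1.88).

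Other genes of the cell cycle, from fixed lists, were set beside the members in the same high and low cells. Most high cells lay in the odd rows and most low cells in the even rows, so kinds of cells and depth differed as well. Their part in these values was not tested. Of 50 further mitosis genes 36 were at least 4-fold higher in high cells, with a median log2 ratio of 2.35. Among those with the highest level were the condensin gene Smc4 (532 against 106 CPM), Incenp (344 against 28.8 CPM), a partner of Aurkb, and the NDC80 subunit gene Spc24 (265 against 13.8 CPM). Bub3 was also abundant but not called (347 against 112 CPM). Of 36 S phase genes 8 were called and 35 had a ratio above 0, with a median of 1.57. The ribonucleotide reductase gene Rrm2 (417 against 23.7 CPM), Dut (641 against 114 CPM), Rrm1 (325 against 48.5 CPM) and Tyms (289.6 against 27.1 CPM), which all serve dNTP supply, were among the 8. The helicase gene Mcm6 had 353 against 159 CPM.

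Of 11 chromatin and tubulin genes 8 were called, among them the tubulin gene Tuba1b (3430 against 496 CPM) and Hmgb2 (2363 against 293 CPM). Of 10 genes of G1 only Cdk6, a partner of D cyclins, was called (250.1 against 51.2 CPM), and Ccnd3 had 536 against 369.6 CPM. Of the 10, 8 had a ratio above 0 and 2 below. The latter were Ccnd2 (60.0 against 264.7 CPM) and Ccnd1 (24.8 against 92.3 CPM). Of 12 genes linked to cell cycle exit 0 were called higher and Btg1, an antiproliferative gene, was called lower (81.2 against 539.9 CPM). Its relative Btg2 had 127 against 363 CPM. Of the 12, 5 had a ratio above 0 and 7 below. Among the 5 were E2f4 (204 against 116 CPM) and Cdkn2d (94.8 against 41.6 CPM). The sides of this contrast also differed in kinds of cells and depth. Between them, mitosis genes beyond the 40, genes of dNTP supply and chromatin and tubulin genes set the high cells apart. Of the G1 genes only Cdk6 reached the same size.

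Among 9096 other genes with at least 500 UMIs, the 20 most alike to the members in this comparison included 7 of the fixed mitosis list and 2 of the S phase list. Pclaf, a partner of PCNA, led those carried by many cells, at 732 against 38.9 CPM and with a UMI in 92.2% of high cells. The histone genes Hist1h2ao, Hist1h2ap and Hist1h2ae, H2afx, the nuclear import gene Kpna2, the repair gene Neil3 and Mxd3 of the MYC network were in no fixed list. Ighv1-49 and S100a9 ranked among the 20 as well, but each had all its UMIs in high cells within 1 cell.

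The make-up of the member UMIs within high cells was also compared, which does not depend on how many cells are high. Ube2c took 11.3% of the member UMIs of high cells in the Cst3 class, 12.2% in the Rag1 class, 12.1% in the Ikzf2 class and 11.5% in the rest. In the 62 high cells of the even rows it took 7.06% (95% Clopper-Pearson interval 6.39 to 7.77), with 5.85 to 8.93% in the single rows. In the 38 high cells of the Cd79a class it took 8.62% (7.82 to 9.48). The even rows lay below every row of the Cst3, Rag1, Ikzf2 and rest classes, which went from 10.2 to 13.2%. Mki67 went the other way, with 13.8% (12.9 to 14.8) in the even rows, 11.3% (10.4 to 12.3) in the Cd79a class and 8.50 to 9.12% in the other classes. Cks2 had 3.45% in the even rows and 4.56 to 5.83% elsewhere, while Top2a, at 7.68 to 9.34%, differed less. High cells of the even rows had a median of 7448 UMIs, against 12832 to 17497.5 in the classes of the odd rows, and the even rows had as few as 9 high cells in a row.

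To see which members go with DNA synthesis, the high cells were ordered by their UMIs of 36 S phase genes, again of 2000. Of the 1018 high cells 48 had at most 1 such UMI, 147 had 2 to 4, 256 had 5 to 9 and 567 had 10 or more, with medians of 11615 to 15349 UMIs per cell. Cenpa had 717 CPM (95% Poisson interval 649 to 791) in cells with at most 1 S phase UMI, 713 and 406 CPM in the next steps, and 227 CPM (217 to 238) in those with 10 or more. Cenpf, a kinetochore protein that accumulates in G2, Aspm, a spindle pole protein, and Cdc20 also differed by more than 2-fold between the ends on the scale of CPM plus 10. Aspm had 197 and 85.9 CPM at the ends, and Ccnb2 460.04 and 226 CPM, just under 2-fold. Top2a, which untangles DNA, went the other way, with 566 CPM (506 to 631), 743, 826 and 935 CPM (915 to 956) over the 4 steps. Spc25 had 61.7 CPM (43.0 to 85.8) and 98.3 CPM (91.8 to 105) at the ends. Mki67 had 962 and 917 CPM. Of the 40 members 29 were higher in the cells with few S phase UMIs and 11 in those with many. The summed members were themselves higher in the former, at 11920.5 against 9441 CPM. As a share of the member UMIs, 17 were higher in cells with few S phase UMIs and 23 in those with many. Cenpa took 6.02% and 2.41%, Top2a 4.75% and 9.91%, and Mki67 8.07% and 9.72%. The kinds of cells differed between the ends. Of the 48 cells with few S phase UMIs, 24 were Cst3, 6 Ikzf2, 5 rest and 2 Rag1 class cells. Of the 567 with many, these classes held 73, 119, 162 and 167. The part of this in the pooled values was not tested. Within the Cst3 class the log2 ratio was 1.39 for Cenpa, 1.22 for Aspm, -0.58 for Top2a and -0.89 for Spc25. Spc25 had -0.97 in the rest, 0.36 in the Ikzf2 class and 0.03 in the Rag1 class. Top2a had -0.22, -0.67 and 0.13 in the same order. Calls of high cells and of S phase steps each rest on 1 random draw of 2000 UMIs.

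**Figure D5:**
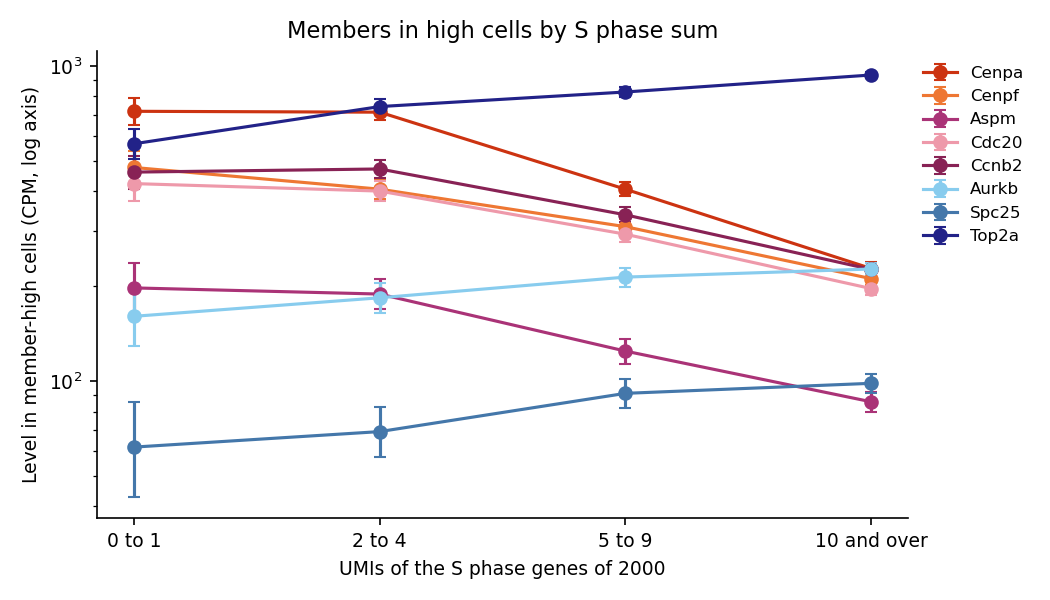
The level in CPM, on a log axis, of the 5 members with the highest and the 3 with the lowest ratio between high cells with few and with many UMIs of 36 S phase genes among 2000 drawn, with exact 95% Poisson intervals. Cenpa went from 717 to 227 CPM and Top2a from 566 to 935 CPM.

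Many cells high for the members were high for S phase genes too. At least 10 S phase UMIs were found in 69.0% of the member-high cells of the Rag1 class, 68.4% in the rest, 50.4% in the Ikzf2 class, 35.96% in the Cst3 class and 23.7% in the Cd79a class. Among all thinned cells of these classes the shares were 65.3, 39.4, 24.1, 20.0 and 3.28%. The share in member-high cells was thus close to that of the whole class in the Rag1 class, where the median was 13 S phase UMIs in member-high and 14 in other cells, and well above it in the other 4 classes. Conversely, 65.7% of the S phase-high cells of the Rag1 class were member-high, against 49.7% in the rest, 46.9% in the Ikzf2 class and 28.2% in the even rows. In the even rows 37 cells were high for both, 94 for S phase genes alone and 25 for the members alone.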

How the data were processed

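The authors deposited raw UMI counts of 1 library, made with Cell Ranger 6.0.0 on the prebuilt mm10 reference (release not given), with hashtag counts in the same matrix. Per the labels, the hashtag library is a second sample of the same cells. Cells were filtered and assigned to rows as described, which removed doublets between rows but not within a row, and free RNA was not subtracted. The 40 members, the lists and the classes were chosen with earlier results of these data known. CPM were UMIs per 1000000 gene UMIs summed over cells. Thinning drew UMIs without replacement (seed 1). Poisson and Clopper-Pearson intervals are exact, at 95%, and PCR reads were collapsed to UMIs. Named were, by rule, the members, up to 4 genes of each other list with the highest CPM in high cells, and the 20 other genes of at least 500 UMIs most alike to the members. Ccnd1 and Ccnd2 were named outside this rule, as the G1 genes with a ratio below 0. Gates, filters, thresholds and rows were varied, and the split by T cell genes was added after the data had been seen. Scripts were tested on simulated data (Python 3.11.15, numpy 2.4.6, scipy 1.17.1). T cell receptor sequences were not used here.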

Additional observations from a re-analysis of the deposited data

Results flagged for a closer look

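Member UMIs were also counted outside the cells compared. The 2140 barcodes that passed the gene and mitochondrial filters but had no single hashtag row, and which no comparison above used, held 3050 CPM of the 40 members (95% Poisson interval 3026 to 3074), at a median of 7131.5 UMIs. The cells kept had 3190 CPM, and there is no control to set either value against. By the rule such a barcode held fewer than 10 hashtag UMIs or no row with at least 80% of them. How many were droplets with cells of several rows was not counted. The members were not compared between these kinds of barcodes.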

How the results depend on the processing

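Over 156 alternative values, 54 moved and 1 turned its sign. Moved means outside the counting interval of the main value or, for counts of members, past a rule of size. Cuts of 5 and 20 member UMIs change what is counted, so their shares differ by construction. The log2 ratio of the summed members to the rest class turned for the Ikzf2 class without row 13, and leaving out 1 odd row gave -0.23 to 0.041 there, -2.21 to -1.88 for the Cd79a class, -0.52 to -0.47 for the Cst3 class and 0.49 to 0.66 for the Rag1 class. In the order Cd79a, Cst3, Ikzf2 and Rag1 it was -1.99, -0.64, -0.20 and 0.63 with 95% of hashtag UMIs on 1 row, and -2.38, -1.47, -0.53 and 0.45 with stricter gates. It was -0.54 and -0.12 for Cst3 and Ikzf2 with 500 genes and 10% mitochondrial UMIs, and -1.29, -0.58 and 0.71 for Cst3, Ikzf2 and Rag1 with at most 4000 genes. For Cd79a and Cst3 it was -1.80 and -0.58 without ribosomal, mitochondrial and immunoglobulin genes, and without Ube2c it was -2.06 for Cd79a and 0.57 for Rag1.

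At most 4000 genes gave 18 members lower in the Cst3 class (9.80% of all genes) and 3 higher in the Rag1 class (0.393%), and stricter gates gave 32 lower in the Cst3 class (10.5%). The percent of high cells, in the order Cd79a, Cst3, Ikzf2, Rag1 and rest, was 3.39, 9.38, 12.4, 47.5 and 19.3 with at most 4000 genes. From 5 member UMIs it was 7.69, 26.9, 29.2, 75.1 and 39.1, and 2.55 in the even rows. From 20 it was 1.89, 11.1, 12.4, 34.7 and 15.3, and 0.788 in the even rows. It was 25.4 and 32.3 for Ikzf2 and rest with 500 genes, 12.8 and 35.4 for Cst3 and rest with stricter gates, 56.9 and 25.5 for Rag1 and rest at 1000 UMIs, 75.3 for Rag1 with 95% hashtag UMIs and 15.4 for Cst3 cells without T cell genes. The causes were not tested.

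Values within high cells of the even rows rest on 9 to 28 cells a row. No paired analysis was possible because the hashtag rows carry no replicate numbers. With 1 pooled sample, a difference between populations has no replicate check.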

Other observations

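Pairs of members were compared over single cells as a description, on log-transformed counts scaled to depth, with cells of 1 library that share depth and free RNA. Over all 9239 cells with at least 2000 UMIs, Pearson's r of the 780 pairs lay between 0.17 and 0.74 with a median of 0.42. Within the 1018 high cells it lay between -0.29 and 0.60 with a median of 0.16, and 724 pairs were above 0. The highest pairs there were Ccnb2 with Cenpa and Ccnb2 with Ube2c, both at 0.60, then Kif11 with Mki67 at 0.58 and Mki67 with Top2a at 0.57. The lowest were Mki67 with Cks2 and with Birc5, both at -0.29, and with Ccnb2 at -0.26. In sparse counts such values are small also for genes of the same cells. The high cells were chosen by the sum of these same members. Values of r within them can therefore not be set against those over all cells.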
